A study of Mus musculus with 4 samples.

Results

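The SLC12 genes encode the cation-chloride cotransporters, membrane carriers that move chloride together with sodium, potassium or both. The 8 genes Slc12a1, Slc12a2, Slc12a3, Slc12a4, Slc12a5, Slc12a7, Slc12a8 and Slc12a9 were taken by symbol from a table of 23763 genes measured in mouse spleen, and all 8 had a row. Directional RNA sequencing after removal of ribosomal RNA gave 4 libraries, 2 labelled wild-type (WT) and 2 labelled KLHL3-KI, a Klhl3 knock-in. Both groups were C57BL/6J mice at baseline, with no other allele or agent named. No allele name, age or sex is given in the sources read. The labels do not say that the replicates came from separate animals, so p-values measure the spread between these samples, which may be technical.

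The sodium-dependent carriers Slc12a1 (NKCC2), Slc12a2 (NKCC1) and Slc12a3 (NCC) bring chloride into the cell, and the potassium-chloride carriers Slc12a4 (KCC1), Slc12a5 (KCC2) and Slc12a7 (KCC4) let it out. WNK kinases act on both through the kinases SPAK and OSR1, whose phosphorylation activates the importers and inhibits the exporters. The KLHL3 protein is the adaptor through which a CUL3 ubiquitin ligase marks WNK kinases for degradation. In red cells, potassium-chloride cotransport lowers cell volume as the cell matures.

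Reads counted to genes came to 8535483 to 10933023 a library, taking the smallest value of each library as 1 read. Values are scaled read counts, in which 1 read was worth 0.0974 to 0.112. The 8 genes together took 1670 to 2007 reads of a library, or 174 to 224 of every 1000000 reads counted to genes. Klhl3 itself was low, at 3.02 and 4.67 in WT spleen, against 2.53 and 1.36 in KLHL3-KI spleen (replicates 1 and 2). The 16970 genes whose mean value reached 1 were tested, among them all 8 members, by limma on log2(value + 1), and a gene passed at a Benjamini-Hochberg adjusted p under 0.05. The pseudocount of 1 makes log2 fold changes of low genes smaller than they are.

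Of the 8 members, Slc12a4 rose in KLHL3-KI spleen, Slc12a7 fell and the other 6 did not pass the test. Of all tested genes, 15.2% rose and 7.56% fell by the same rule, so 1 rise and 1 fall among 8 genes lie near these shares. Both KLHL3-KI values lay above both WT values in 32.8% of tested genes and below both in 31.9%. Among the members this held for Slc12a4 alone upward and Slc12a7 alone downward. The median log2 fold change of the members was -0.13, against -0.01 over all tested genes.

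The 2 genes that passed are shown by the 250 bases before their RefSeq start (build GRCm38.p6), because they encode carriers of the same kind and moved in opposite directions. Capitals mark GGGCGG, the GC box bound by Sp1-type factors, on either strand; adjoining matches can overlap.
Slc12a4 (chr8:105966116-105966365, minus strand): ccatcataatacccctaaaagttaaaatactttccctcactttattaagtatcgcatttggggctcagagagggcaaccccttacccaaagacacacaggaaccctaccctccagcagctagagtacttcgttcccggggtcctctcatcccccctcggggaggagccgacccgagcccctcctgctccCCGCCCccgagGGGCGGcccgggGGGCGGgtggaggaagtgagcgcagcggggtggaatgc
Slc12a7 (chr13:73763410-73763659, plus strand, the first of its listed starts): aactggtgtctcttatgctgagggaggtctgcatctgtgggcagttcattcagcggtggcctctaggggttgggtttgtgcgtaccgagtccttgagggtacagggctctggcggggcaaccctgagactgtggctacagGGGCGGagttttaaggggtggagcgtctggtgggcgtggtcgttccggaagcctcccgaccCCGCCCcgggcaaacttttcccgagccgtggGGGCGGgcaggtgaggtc
Each window printed held 3 matches. The other listed start of Slc12a7 (window 73763447-73763696, overlapping the one printed) had 6 matches and a GC content of 68.8%. Of 32851 RefSeq windows of this length, 32.7% held at least 1. The GC content of the printed windows was 60.8% for Slc12a4 and 63.6% for Slc12a7, against a median of 52.4% over all windows. The GATA motif AGATAA was in neither window (9.99% of all windows hold it on either strand), nor was the CACC box CCACACCC (3.20%). Promoters were listed for 7 members, all but Slc12a2, and AGATAA was found in those of 2 of them, Slc12a3 and Slc12a8. These matches describe letters and are no evidence of binding.

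Slc12a4 encodes KCC1, the widely expressed potassium-chloride cotransporter that red cells also carry. WT replicates 1 and 2 were at 18.01 and 20.2, and KLHL3-KI replicates 1 and 2 at 24.6 and 27.6. Both KLHL3-KI libraries were above both WT libraries, by a gap larger than the distance within either group. The mean went from 19.1 ± 1.58 to 26.1 ± 2.12 (SD, n = 2 each), with a log2 fold change of 0.43 (SE 0.13, 95% interval 0.13 to 0.72, limma adjusted p = 0.0438). These values rested on 161 to 283 reads a library. The direction was upward under all 15 alternatives run, but the call was lost under 9 of them. Over all 15 the adjusted p-values ran from 0.0305 to 0.212. It was lost without WT replicate 1 (limma adjusted p = 0.212), without WT replicate 2 (0.110) and without KLHL3-KI replicate 2 (0.197), and equal total reads gave a log2 fold change of 0.27 (0.158). The antisense gene Gm16156, which overlaps Slc12a4, was at 0.0974 to 0.336. Whether reads were counted by strand is not stated.

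Slc12a7 encodes KCC4, a potassium-chloride cotransporter of many tissues including kidney and red cell precursors. Its WT values were 78.4 and 79.5, and its KLHL3-KI values 57.5 and 60.8. The WT libraries were almost level, and both KLHL3-KI libraries were lower. The mean went from 78.97 ± 0.764 to 59.1 ± 2.32 (SD, n = 2 each), with a log2 fold change of -0.41 (SE 0.10, 95% interval -0.63 to -0.20, limma adjusted p = 0.0133). It rested on 522 to 766 reads a library. The direction was downward under all 15 alternatives. The call was lost under 3 of them, namely with no variance trend (limma adjusted p = 0.0703), without WT replicate 1 (0.0788) and without WT replicate 2 (0.104).

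**Figure D1:**
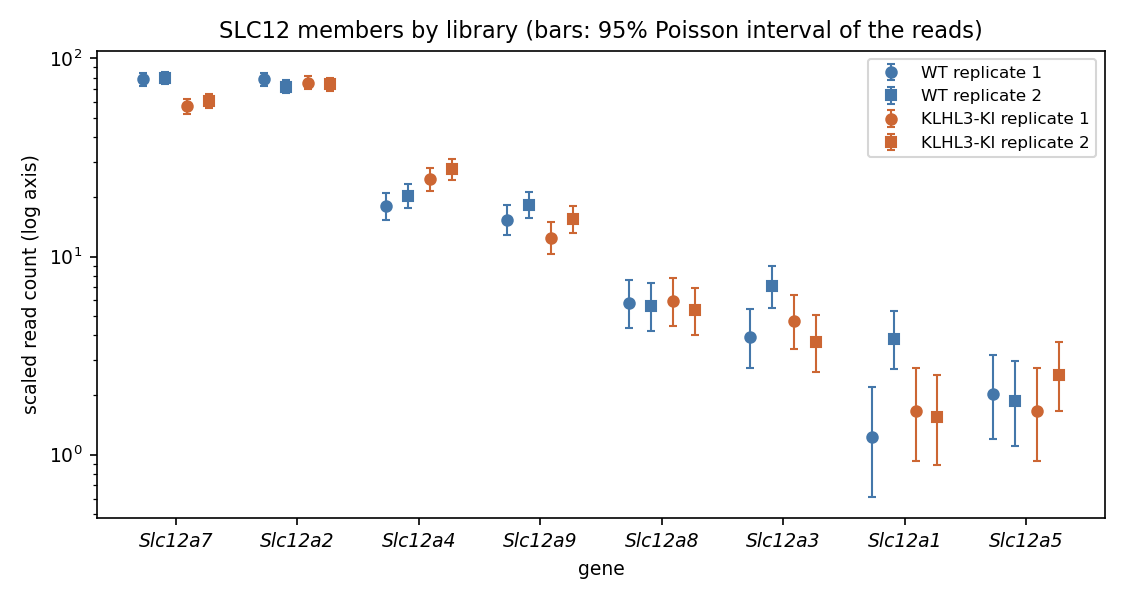
Scaled read count (log axis) of each SLC12 member in the 4 libraries, with circles for replicate 1, squares for replicate 2 and bars for the 95% Poisson interval of the reads, which covers counting error only. Slc12a7 was lower and Slc12a4 higher in both KLHL3-KI libraries, while Slc12a1 and Slc12a3 had 1 high library, WT replicate 2.

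The ratio of the reads of 2 genes within a library does not depend on how libraries were scaled. A log2 ratio of scaled values with a pseudocount does so in part. WT replicates 1 and 2 held 4.35 and 3.93 reads of Slc12a7 for each read of Slc12a4, and KLHL3-KI replicates 1 and 2 held 2.34 and 2.20. The log2 ratio of Slc12a4 to Slc12a7, with a pseudocount of 1, was -1.99 ± 0.0992 in WT and -1.15 ± 0.0576 in KLHL3-KI (SD, n = 2 each). The difference was 0.84, and it stayed between 0.75 and 0.91 under the 7 alternatives run for it. An exact two-sided permutation test gave p = 0.33, the smallest that 2 against 2 libraries allow. The pair was chosen with earlier results of these data known, and a ratio shows only that the genes changed unequally.

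Slc12a2 was used as the other term in the same way, since it took about as many reads as Slc12a7 in WT, without correction for length. Slc12a7 was level with Slc12a2 in WT, at 0.999 and 1.10 reads for each Slc12a2 read, and below it in KLHL3-KI, at 0.762 and 0.823. Slc12a4 was at 0.229 and 0.281 reads for each Slc12a2 read in WT, against 0.326 and 0.373 in KLHL3-KI. The groups did not overlap in either ratio. Each exact permutation test gave p = 0.33, the smallest possible with so few libraries, so it cannot decide whether a ratio changed. The log2 ratio to Slc12a2 changed by 0.44 for Slc12a4 and by -0.40 for Slc12a7. These values largely repeat the log2 fold changes of the genes themselves (0.43 and -0.41), since Slc12a2 was nearly level (-0.01). Among single tested genes, both KLHL3-KI values lay above both WT values in 32.8% and below both in 31.9%.

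**Figure D2:**
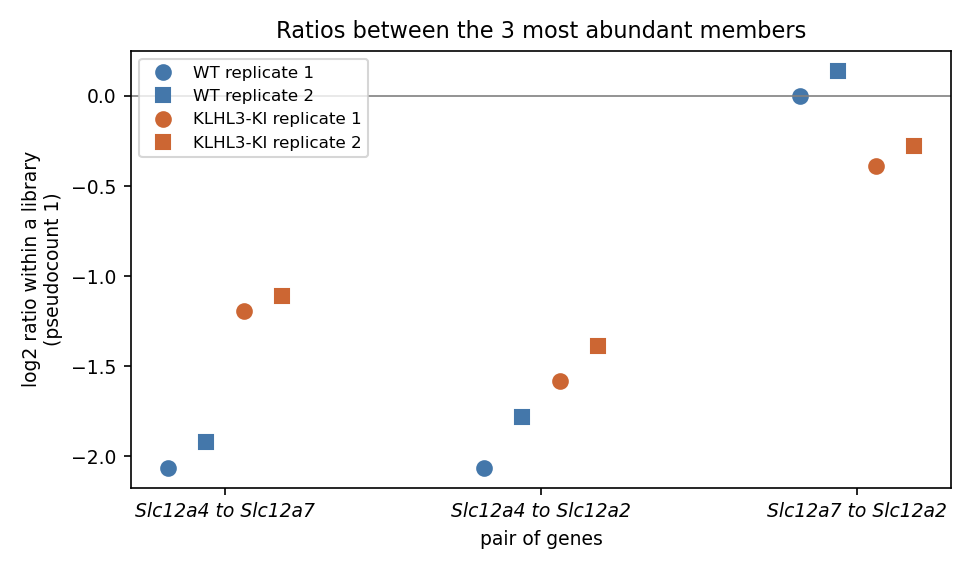
Log2 ratio within each library, with a pseudocount of 1, for the 3 pairs among Slc12a2, Slc12a4 and Slc12a7. The KLHL3-KI libraries were higher for Slc12a4 against both other genes and lower for Slc12a7 against Slc12a2.

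Slc12a2 encodes NKCC1, the sodium-potassium-chloride cotransporter found in most cells. It was measured at 78.5 and 72.0 in WT, against 75.4 and 73.8 in KLHL3-KI. The KLHL3-KI values lay between the WT values. The log2 fold change was -0.01 (SE 0.10, limma adjusted p = 0.950), and its 95% interval ran from -0.23 to 0.21. Equal total reads, the scaling with the lowest median over all genes (-0.16), gave -0.18 for Slc12a2 (limma adjusted p = 0.174).

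Slc12a1 and Slc12a3 are known from the kidney, where NKCC2 works in the thick ascending limb and NCC, the target of thiazide diuretics, in the distal convoluted tubule. Slc12a1 was at 1.23 and 3.84 in WT, against 1.65 and 1.56 in KLHL3-KI, on 11, 37, 15 and 16 reads. Slc12a3 was at 3.92 and 7.06 in WT, against 4.74 and 3.70 in KLHL3-KI, on 35, 68, 43 and 38 reads. For both genes WT replicate 2 was the high library and the other 3 lay close together.

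The 95% Poisson intervals of the WT libraries did not overlap for Slc12a1 (0.614 to 2.20 in replicate 1 and 2.70 to 5.29 in replicate 2). They did not overlap for Slc12a3 either (2.73 to 5.45 and 5.48 to 8.95). Between the groups, the log2 fold change was -0.34 (SE 0.34, limma adjusted p = 0.523) for Slc12a1 and -0.28 (SE 0.26, limma adjusted p = 0.478) for Slc12a3. Without WT replicate 2 these became 0.22 and 0.08.

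Kidney tubule markers varied between the libraries in a similar way. The summed level of a list of 10 such markers was 36.2 in WT replicate 1, 119 in WT replicate 2, 64.6 in KLHL3-KI replicate 1 and 34.2 in KLHL3-KI replicate 2. Of the 10 markers, 8 were highest in WT replicate 2 and none was at 0 in all libraries. The 8 include Aqp2 and Pvalb, which stayed under 1 in every library. For Pvalb, WT replicate 2 (0.208) and KLHL3-KI replicate 2 (0.195) differed by less than the value of 1 read. The test was run on the 7 with a mean of at least 1, and none of these passed. Kap, an androgen-regulated protein of the proximal tubule, was at 13.0 and 48.1 in WT, against 23.1 and 12.1 in KLHL3-KI. Umod, uromodulin of the thick ascending limb, where Slc12a1 is expressed, was at 3.36 and 8.10 in WT, against 4.19 and 2.43 in KLHL3-KI. The other 2 markers, Slc5a2 and Calb1, were highest in KLHL3-KI replicate 1. Calb1, of the distal tubule where Slc12a3 is expressed, was at 0.671 and 0.415 in WT, against 1.65 and 0.390 in KLHL3-KI, so it did not share the high value of WT replicate 2. Slc12a3 followed the order of the summed markers over the 4 libraries. Slc12a1 did not: it was lowest in WT replicate 1 (1.23), and the summed markers in KLHL3-KI replicate 2 (34.2). The part of RNA from kidney cells in the Slc12a1 and Slc12a3 values was not tested.

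**Figure D3:**
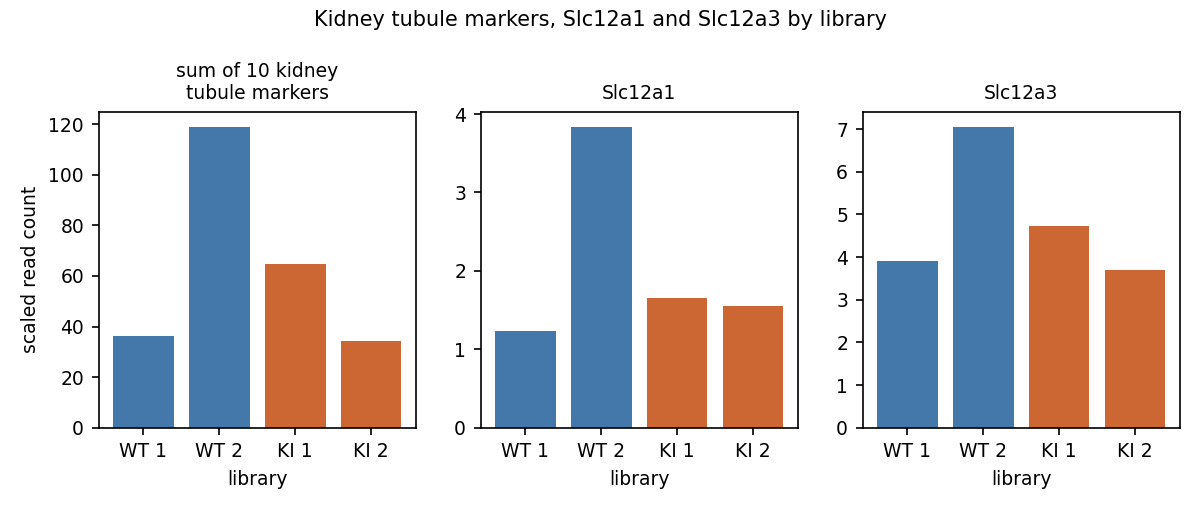
Scaled read count in WT replicates 1 and 2 (WT 1, WT 2) and KLHL3-KI replicates 1 and 2 (KI 1, KI 2) of 10 summed kidney tubule markers, of Slc12a1 and of Slc12a3, each panel with its own axis from 0. WT replicate 2 was highest in each panel.

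Slc12a5 encodes KCC2, the potassium-chloride cotransporter of neurons. It was near the minimum level, at 2.01 and 1.87 in WT, against 1.65 and 2.53 in KLHL3-KI, on 15 to 26 reads. The groups overlapped (log2 fold change 0.06, SE 0.24, limma adjusted p = 0.890). The 5 neuron markers with a row summed to 14.3 and 14.5 in WT, against 11.3 and 9.64 in KLHL3-KI, and none was at 0 in all libraries. Their part in the Slc12a5 value was not tested.

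Slc12a8 and Slc12a9 are the more distant members, less well characterised as ion cotransporters. Slc12a8 was at 5.82 and 5.60 in WT, against 5.95 and 5.36 in KLHL3-KI, so the KLHL3-KI values lay to either side of the WT values. Its log2 fold change was -0.01 (SE 0.18, limma adjusted p = 0.968), with a 95% interval from -0.42 to 0.39. Slc12a9 was at 15.3 and 18.2 in WT, against 12.4 and 15.5 in KLHL3-KI. Its groups overlapped narrowly, and the log2 fold change of -0.25 (SE 0.16, 95% interval -0.61 to 0.11) did not pass (limma adjusted p = 0.300).

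**Figure D4:**
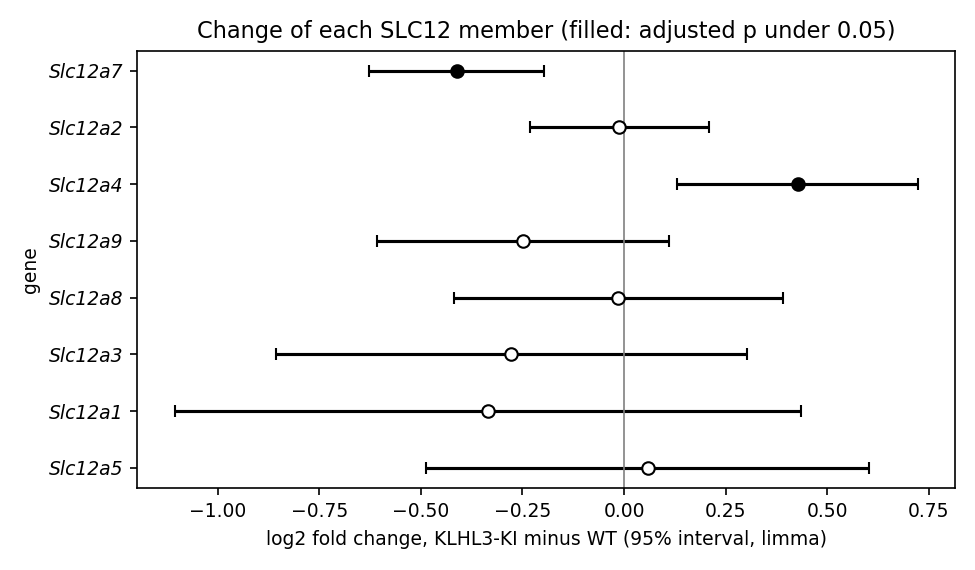
Log2 fold change of each member (KLHL3-KI minus WT) with its 95% limma interval, and filled points where the adjusted p was under 0.05. Slc12a4 at 0.43 and Slc12a7 at -0.41 are the filled points, and the interval was widest for Slc12a1.

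Levels of different members were ranked per kilobase of exon, with lengths from GENCODE M21, which is not the annotation of the authors' build. Ratios and shares of reads between members are not corrected for length. In WT the order was Slc12a2 (6.89 per kilobase), Slc12a7 (6.23), Slc12a4 (4.47), Slc12a9 (3.34), Slc12a8 (1.29), Slc12a3 (0.493), Slc12a1 (0.440) and Slc12a5 (0.261). Among the last 3, Slc12a1 ranged from 0.214 to 0.666 per kilobase over the WT libraries and overlapped both others, while Slc12a3 (0.352 and 0.635) was above Slc12a5 (0.270 and 0.251) in both. In KLHL3-KI spleen Slc12a2 stayed first (6.83), while Slc12a4 (6.09 ± 0.496) stood above Slc12a7 (4.67 ± 0.183) in both libraries. Both the exchange and part of the WT order depended on the length used. Per kilobase of the longest transcript, Slc12a7 was at 8.46 and Slc12a4 at 6.84 in KLHL3-KI, and at 11.3 and 5.02 in WT, where Slc12a9 (5.03) was level with Slc12a4.

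Within the family, Slc12a2, Slc12a4 and Slc12a7 took 82.5% to 86.1% of the reads of the 8 genes. The share of Slc12a4 was 8.86% (exact binomial 95% interval 7.59 to 10.3) and 9.72% in WT, against 13.4% and 14.4% in KLHL3-KI. The share of Slc12a7 was 38.6% and 38.2% in WT, against 31.3% and 31.9% in KLHL3-KI. Intervals on reads cover counting error only.

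The summed level of the 8 genes was 203 and 208 in WT, against 184 and 191 in KLHL3-KI. The 3 potassium-chloride carriers among them summed to 98.5 and 102 in WT, against 83.7 and 90.9 in KLHL3-KI, since the fall of Slc12a7 was larger in reads than the rise of Slc12a4. The sodium-dependent carriers summed to 83.7 and 82.9 in WT, against 81.8 and 79.1 in KLHL3-KI. These sums weight abundant and long genes and were not tested. Per kilobase of exon, the mean of Slc12a7 went from 6.23 in WT to 4.67 in KLHL3-KI. That of Slc12a4 went from 4.47 to 6.09, so on this scale the fall was not larger than the rise. Per kilobase of the longest transcript, Slc12a7 went from 11.3 to 8.46 and Slc12a4 from 5.02 to 6.84.

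Markers of blood cell types moved with the groups. Over all tested genes, 15.2% rose and 7.56% fell by limma. All 14 tested erythroid markers rose, and their sum was 10700 to 12491 in WT and 26297 to 27514 in KLHL3-KI. Most of this sum was the globin gene Hba-a1, at 8165 and 7050 in WT, against 14657 and 14601 in KLHL3-KI. Its log2 fold change of 0.95 was below the median of the erythroid list (2.58). All 11 neutrophil and all 8 megakaryocyte markers rose too, with sums of 93.1 to 173 and 177 to 181 in WT against 1431 to 1933 and 405 to 519 in KLHL3-KI. All 11 T cell markers and 8 of 9 B cell markers fell, T cell sums from 589 to 642 in WT to 331 to 358 in KLHL3-KI and B cell sums from 3347 to 3492 to 1936 to 2558. Of 8 red pulp macrophage markers, 3 rose (Vcam1, Cd163 and Mrc1) and none fell. Spic, Adgre1, Hmox1, Slc40a1 and Axl did not pass. The list summed to 2688 to 2966 in WT, against 3378.5 to 3620 in KLHL3-KI. Of the 6 pancreas acinar markers with a row, only Cela1 had a mean of at least 1. It rose, from 6.27 and 7.27 in WT to 13.7 and 16.2 in KLHL3-KI. The others were too low to test, and their highest value was 1.07, for Ctrb1 in KLHL3-KI replicate 2. The rise of Cela1 therefore does not stand for the list. The part of these cell types in the changes of Slc12a4 and Slc12a7 was not tested. In whole spleen, fewer cells of a type and less RNA per cell cannot be told apart.

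The median log2 fold change was 2.58 for the erythroid list, 3.68 for the neutrophil list and 1.20 for the megakaryocyte list. It was -0.80 and -0.70 for the T and B cell lists and 0.22 for the red pulp macrophage list. The changes of Slc12a4 (0.43) and Slc12a7 (-0.41) stood at the 83.4 and 12.3 percentile of all tested genes.

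Of the 12 listed regulators upstream of the cotransporters, 11 were tested, 1 rose and none fell by limma, with a median log2 fold change of 0.05. Beside the 15.2% and 7.56% of all tested genes that rose and fell, this count does not set the list apart. The gene that rose was Wnk1, at 593 and 589 in WT, against 789 and 841 in KLHL3-KI. The SPAK gene Stk39 was at 19.8 and 17.96 in WT, against 20.3 and 18.2 in KLHL3-KI, with overlapping groups. The OSR1 gene Oxsr1 was at 58.2 and 57.6 against 62.0 and 67.2, and it did not pass (log2 fold change 0.15, 95% interval -0.07 to 0.38). Cab39, the scaffold that activates both kinases, was at 168 and 153 in WT, against 157 and 161 in KLHL3-KI. Klhl3, at -0.72 on the log2 scale, did not pass (limma adjusted p = 0.0895). The call of Wnk1 was lost without WT replicate 2 (limma adjusted p = 0.0604, range 4.04e-05 to 0.0618 over its alternatives), without a variance trend and after quantile normalization.

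Of 28 other genes of chloride and cell volume transport, 27 were tested, 7 rose and 3 fell, with a median log2 fold change of 0.01, where 15.2% of all tested genes rose and 7.56% fell. The rises were in Slc4a1, the red cell anion exchanger, Aqp1 and Aqp9, water channels, Kcnn4, the Gardos potassium channel, Atp1b2, a sodium pump subunit, and the chloride transport genes Clcn2 and Clcn3. Kcnn4, a further route of potassium loss from red cells, went from 44.4 and 43.8 in WT to 92.1 and 114 in KLHL3-KI (log2 fold change 1.20, SE 0.12). Slc4a1 went from 596 and 464 to 2703 and 3056 (log2 fold change 2.45, SE 0.13).

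The genes that fell were Slc4a7 and Slc4a8, sodium-driven bicarbonate carriers, and Slc9a3r1, a scaffold of membrane transporters. Slc4a7 was at 99.6 and 109.9 in WT, against 79.1 and 75.0 in KLHL3-KI, a log2 fold change of -0.44 (SE 0.10), close in size to that of Slc12a7. Without WT replicate 2, none of the 3 passed. Without WT replicate 1 or without KLHL3-KI replicate 2, 1 of them passed, and 7 genes of the list fell with equal total reads.

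The genes whose profile over the 4 libraries was nearest to that of a member were taken by the distance of centred log2 values among 9745 named genes with a mean of at least 10. For Slc12a4 they were Tmem179b (distance 0.0118), Scamp1 (0.0234) and Slc3a2 (0.0264). For Slc12a7 they were Rrm2b (0.0303), Vav1 (0.0379) and AU041133 (0.0421). Slc3a2, a subunit of amino acid transporters, was at 121 and 138 in WT, against 163 and 184 in KLHL3-KI. Vav1, a signalling protein of blood cells, was at 126.4 and 126.2 in WT, against 94.7 and 99.2 in KLHL3-KI. With 4 libraries many genes share a profile, and the distances are a description.

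**Figure D5:**
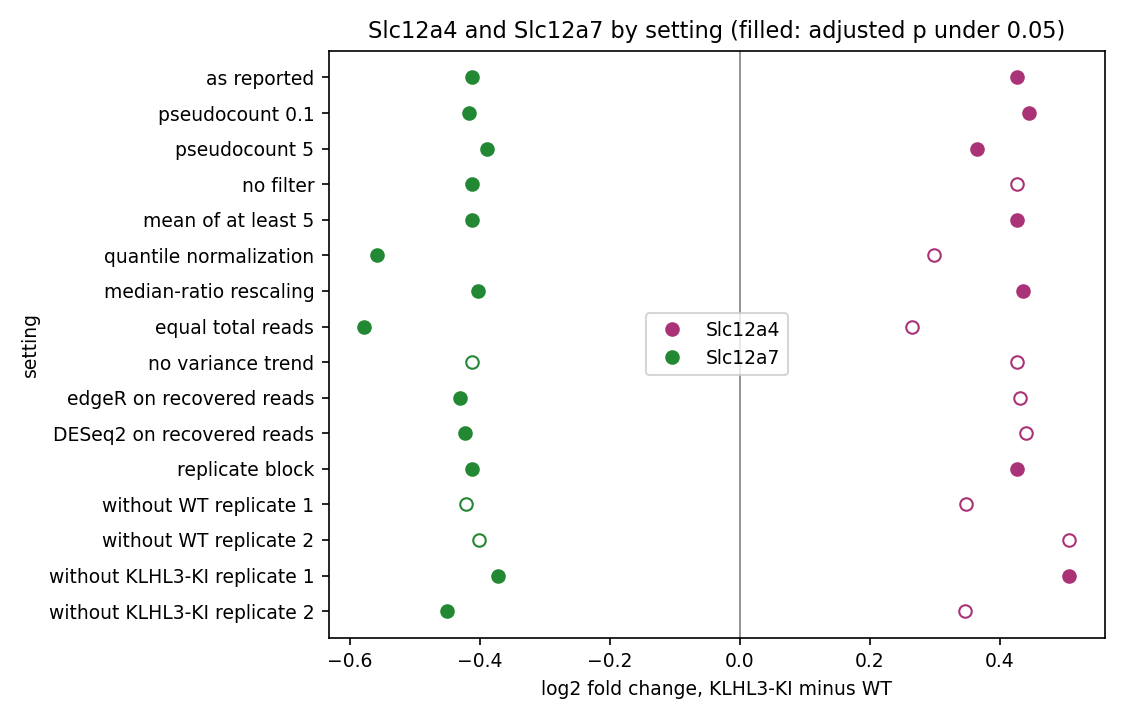
Log2 fold change (KLHL3-KI minus WT) of Slc12a4 and Slc12a7 as reported and under each of 15 alternatives, with filled points where the adjusted p was under 0.05. Slc12a4 stayed between 0.27 and 0.51 and Slc12a7 between -0.58 and -0.37, while the filled points were fewer for Slc12a4.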

How the data were processed

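Per the submitters' processing notes, the tools were Trimmomatic 0.38, Bowtie2, RSEM 1.3.0 and edgeR with build GRCm39. Their roles and the annotation are not stated there, nor whether counting used strand. The deposited values are a signal per gene and library, named normalized counts by the authors. All of them (100%, within 0.001 of a whole read) were whole multiples of the smallest value of the library, which gave back the reads. Columns were matched to samples by the library names in the descriptions, and groups and replicate numbers came from the titles. GENCODE M21 (build GRCm38) gave names for 23605 genes (99.3%) and exon lengths, and RefSeq gave promoters of build GRCm38.p6. Because the builds differ, no other coordinates are printed.

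The test was limma 3.58.1 in R 4.3.3 on log2(value + 1), with a mean-variance trend, adjusted over the 16970 genes whose mean value reached 1. Recovered reads were also tested with edgeR 4.0.16 and DESeq2 1.42.0. The procedure was tested on simulated data. Intervals on reads came from SciPy 1.17.1. Other alternatives were pseudocounts of 0.1 and 5, no filter, a mean of at least 5, 3 other scalings, no variance trend, a replicate block and leaving out each library. Named genes were the members, genes of the regulator and transport lists, and up to 3 abundant genes of a marker list. The 3 nearest profiles of Slc12a4 and of Slc12a7 were also named. Umod, Calb1, Slc5a2, Aqp2, Pvalb, Cd163, Mrc1, Spic, Adgre1, Axl and Gm16156 were named after their values were seen. Members and lists were chosen with earlier results of these data known.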

Additional observations from a re-analysis of the deposited data

How the results depend on the processing

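The direction of Slc12a4, Slc12a7 and Slc12a9 held under every alternative run (15 each). Leaving out 1 library moved the members that rose from 1 to between 0 and 1, and the members that fell from 1 to between 0 and 1. It gave 0 to 1 regulators that rose, 0 to 1 that fell, and 0 to 3 transport genes that fell. No member rose (0) with no filter, after quantile normalization, with equal total reads, without a variance trend, with edgeR or with DESeq2. Without a variance trend 0 members and 0 transport genes fell and 0 regulators rose, and after quantile normalization 0 regulators rose. With equal total reads 1 regulator and 7 transport genes fell. Changes of sign were all in genes that did not pass. With 1 library left out, the log2 fold change ran from -0.89 to 0.22 for Slc12a1, from -0.63 to 0.079 for Slc12a3, from -0.073 to 0.050 for Slc12a2, from -0.15 to 0.26 for Slc12a5 and from -0.078 to 0.050 for Slc12a8. Slc12a5 was at -0.054 with equal total reads. With fewer libraries the spread has fewer degrees of freedom, and a lone library is taken to vary like the other group; beyond this, the cause was not tested. With equal total reads 1916 genes rose and 3130 fell, against 2583 and 1283.

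The replicate block left 1 member that rose and 1 that fell, and 2715 genes rose and 1415 fell over all. The numbers were not taken as pairs. They come from the titles, and the library names are not numbered the same way. The deviations of libraries with the same title number had a correlation of -0.0325 across 16970 genes. Depth limits Slc12a1, Slc12a3, Slc12a5 and Slc12a8, with 11 to 68 reads a library.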
